A study of Caenorhabditis elegans with 45 samples.

Results

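Gene expression was compared between *C. elegans* fed double-stranded RNA (dsRNA) against either of 2 maternal genes, *par-1* or *pos-1*, and *C. elegans* fed the empty vector. The question was which genes moved under both dsRNAs, whatever the gene they matched. Whole hermaphrodites of 5 isogenic strains were sequenced: the laboratory strain N2 and the wild strains JU1088, EG4348, CB4856 and QX1211. The study describes N2 as competent for germline RNAi, JU1088 as highly competent, EG4348 as moderately competent, and CB4856 and QX1211 as largely incompetent. In every group, controls included, the animals ate HT115 *E. coli* that carried the plasmid pL4440. The plasmid was empty in the controls (label CTR) and held a *par-1* (label PAR1) or *pos-1* (label POS1) insert in the treated groups. Animals were collected when egg laying began, with no age in hours given. Each of the 15 groups had 3 biological replicates, which gave 15 control, 15 *par-1* and 15 *pos-1* libraries.

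Members were chosen from a fit over all 45 libraries with strain as a block, which set the mean of the *par-1* and *pos-1* libraries against the controls. A gene met the sign rule where its change had the same sign under both labels in at least 4 of the 5 strains, and was a member where it was also called, with an adjusted p under 0.1 in edgeR's quasi-likelihood test. Of 18581 genes tested, 2781 were called (15.0%), of which 1664 rose (8.96%) and 1117 fell (6.01%). The sign rule was met by 2377 genes (12.8%), and 1344 genes were members (7.23%). Of the members, 789 rose (4.25%) and 555 fell (2.99%). The shared sign was part of the choice and is not a result. It was present in all 5 strains for 321 members and in 4 strains for 1023 members, and the other 1437 called genes did not meet the rule. Just inside the rule, *chca-1* had a log2 change of -0.0001 under the *par-1* label in EG4348, and *nhl-3* had 0.0003 under the *pos-1* label in EG4348. Just outside it, Y119D3B.21 and C08F11.12 were at 0 in QX1211 and had the sign in 3 strains.

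In RNAi by feeding, dsRNA made by the bacteria is taken up from the gut lumen through the transporter SID-2 and spreads between cells through the channel SID-1. Dicer cuts it into short interfering RNAs, the Argonaute RDE-1 binds them, and RNA-dependent RNA polymerases make the secondary siRNAs that silence the target. PAR-1 is a serine/threonine kinase that polarizes the zygote, and POS-1 is a zinc-finger RNA-binding protein of the early embryo. Embryos that lack either protein die. *C. elegans* makes no heme of its own and takes all of it from its bacterial food, with the *hrg* genes and the exporter MRP-5 moving it from the gut to other tissues and to the oocytes.

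Libraries held between 4269033 and 17865356 estimated reads (median 7478891), with medians of 7790420 in the controls, 6963995 in the *par-1* libraries and 8117772 in the *pos-1* libraries. Replicates were not equally alike in every group, and JU1088 *pos-1* replicates 1 and 2 and N2 control replicate 1 were least like the others of their group. Without these 3 libraries, a choice made after the data were seen, 3478 genes were called and 1781 were members, among them 1290 of the 1344. In whole animals, fewer cells of a type and less RNA per cell cannot be told apart.

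The targeted transcripts were examined first. *pos-1* (chromosome V, 8414086 to 8415254, plus strand in WBcel235) was lower under the *pos-1* label in the 3 competent strains. The N2 controls had 5539.9, 5777 and 5719.6 normalized counts of *pos-1*, against 5535, 5843 and 6099 in the *par-1* libraries and 979.9, 1077 and 795 in the *pos-1* libraries. Values in JU1088 were 6425, 6257 and 6236 in the controls, 5502, 4817 and 5797 in the *par-1* libraries and 632, 415 and 515 in the *pos-1* libraries. In EG4348, the controls held 6621, 6589 and 6335, the *par-1* libraries 6304, 5709.6 and 6129, and the *pos-1* libraries 2482, 2536 and 3248. In these strains every *pos-1* library lay below every control. The CB4856 controls had 6104, 6471 and 6672, against 5542, 5881 and 5869.8 in the *par-1* libraries and 5617, 6571 and 6355 in the *pos-1* libraries. Values in QX1211 were 5541, 5567 and 5308 in the controls, 4923, 4806 and 4799 in the *par-1* libraries and 5057, 5114 and 4909 in the *pos-1* libraries. In CB4856 the *pos-1* libraries overlapped the controls and the *par-1* libraries lay below them, and in QX1211 the libraries of both labels lay just below the controls. Over all strains *pos-1* changed by -1.26 ± 0.25 on the log2 scale under its own label (SE, adjusted p = 0.00242) and by -0.12 under the *par-1* label. The mean of both labels in each strain was -1.27 (N2), -1.91 (JU1088), -0.67 (EG4348), -0.10 (CB4856) and -0.16 (QX1211), and this difference between strains passed the test (adjusted p = 1.1e-12). The call of the fall in *pos-1* was lost without JU1088.

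The *par-1* transcript (chromosome V, 14112033 to 14145367, minus strand) was not called lower under its own label in the fit over all strains. The study, in contrast, describes *par-1* knockdown in these samples, like that of *pos-1* in its pattern across strains but weaker. It reports no significant interaction of strain and treatment for *par-1*. *par-1* ran from 844 to 1304 normalized counts in the controls (median 1204), from 806 to 1527 in the *par-1* libraries (median 1142) and from 719.9 to 1281 in the *pos-1* libraries (median 1174), so that all 3 groups overlapped. Its log2 change under the *par-1* label was -0.04 ± 0.07 (SE, adjusted p = 0.743). By strain, that change was -0.18 (N2), -0.13 (JU1088), -0.04 (EG4348), -0.10 (CB4856) and 0.24 (QX1211), given here without a test. In no strain did the *par-1* libraries all lie below all controls. The level of *par-1* RNA therefore gave no check of the *par-1* label, and "*par-1* libraries" means the libraries labelled PAR1.

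A set of 10 members was called in each of the 5 strains on its own. Within a strain, few genes passed the same test in 4 of the strains: 72 in N2 (0.387%), 89 in EG4348 (0.479%), 85 in CB4856 (0.457%) and 43 in QX1211 (0.231%), against 2353 in JU1088 (12.7%). Without 3 libraries that were given 1 shared fragment length, the counts were 1480 in JU1088 and 27 in QX1211. Of the 10, *asp-14* rose, and *nep-8*, *hrg-2*, *hrg-3*, Y39B6A.21, *gsto-1*, F36A2.3, *haf-7*, *ctsa-4.1* and *cpr-5* fell. A further 13 members were called in 4 strains. In this second set *dod-24*, *cpr-3*, *far-6*, ZK105.1, *spp-5*, E04F6.8 and F22H10.3 rose, and C40H1.7, *hrg-7*, *ugt-21*, *ctsa-4.2*, *cpr-8* and *tag-10* fell. Among all genes tested, 12 were called in 5 strains. The others, *tbh-1* and *anp-1*, had the shared sign in 3 strains and did not meet the rule. In the set called in 4 strains, the strain without a call was QX1211 for all 7 genes that rose, and EG4348 for 5 of the 6 that fell (QX1211 for C40H1.7). A call in 1 strain and not in another does not show that the strains differ.

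**Figure D1:**
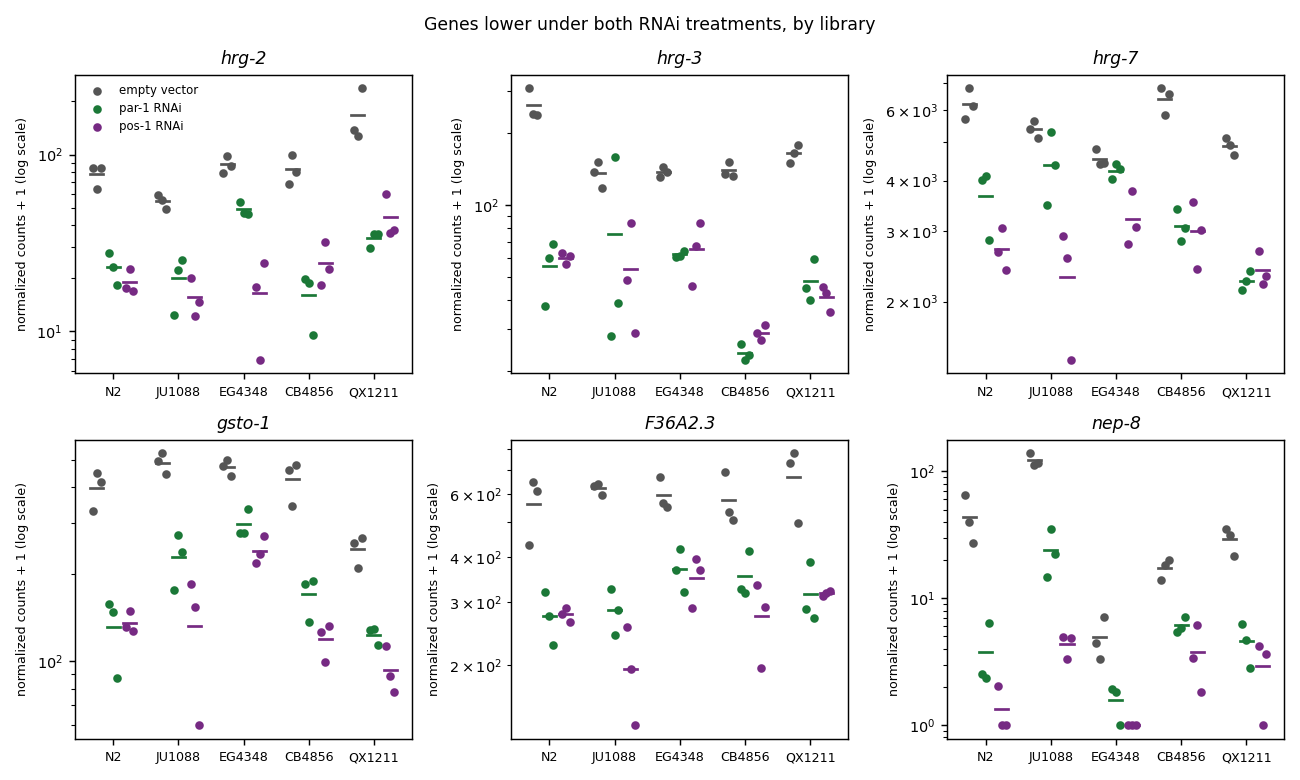
Normalized counts plus 1 (y axis, log scale) of 6 members that fell, by strain (x axis); each point is a library, each bar the mean of 3 replicates, with empty vector in grey, *par-1* in green and *pos-1* in purple. For *hrg-2*, *gsto-1*, F36A2.3 and *nep-8* every treated point lies below the control points of its strain.

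Of 9 *hrg* genes tested, 6 fell (66.7%, beside 6.01% of all genes tested) and 0 rose, and all 6 that fell met the sign rule. Their median log2 change was -0.55, beside 0.02 over all genes tested. By strain the median was -0.96 (N2), -0.37 (JU1088), -0.25 (EG4348), -0.64 (CB4856) and -0.69 (QX1211). The summed level of the 9 genes was 688 to 1009 CPM in the controls (each library's normalized counts scaled to the same total), 380.4 to 943 in the *par-1* libraries and 259.7 to 564 in the *pos-1* libraries, so that all *pos-1* libraries lay below all controls.

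*hrg-2* (chromosome V, 12409415 to 12410513, minus strand) encodes a heme-binding membrane protein of the hypodermis. In N2, the controls held 83.1, 63.3 and 82.9 normalized counts of *hrg-2*, the *par-1* libraries 26.7, 22.2 and 17.4, and the *pos-1* libraries 16.6, 21.5 and 16.0. The JU1088 controls had 57.9, 54.3 and 48.0, against 11.37, 21.3 and 24.5 in the *par-1* libraries and 19.1, 11.2 and 13.6 in the *pos-1* libraries. Values in EG4348 were 77.9, 97.6 and 85.7 in the controls, 52.7, 46.0 and 45.2 in the *par-1* libraries and 16.9, 5.91 and 23.4 in the *pos-1* libraries. In each of these strains all 6 treated libraries lay below all controls. In CB4856, the controls held 67.6, 99.1 and 78.9, the *par-1* libraries 18.8, 17.9 and 8.55, and the *pos-1* libraries 17.4, 30.9 and 21.5. The QX1211 controls had 137, 127 and 237, against 28.5, 34.8 and 34.7 in the *par-1* libraries and 58.8, 35.3 and 36.3 in the *pos-1* libraries. Here too the groups did not overlap, and QX1211 had the highest control levels. The log2 change of *hrg-2* was -1.89 ± 0.14 (SE, adjusted p = 4.73e-13), with -1.75 under the *par-1* label and -2.02 under the *pos-1* label.

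*hrg-3* (chromosome V, 9756468 to 9757019, plus strand) encodes a small secreted protein that carries maternal heme from the gut to oocytes and other tissues. *hrg-3* ran from 116 to 307 normalized counts in the controls (median 149), from 21.4 to 158 in the *par-1* libraries (median 43.7) and from 26.0 to 83.2 in the *pos-1* libraries (median 44.5). The groups did not overlap in 4 strains, and in JU1088 one *par-1* library, replicate 2 at 158, lay above the controls at 137, 151 and 116. The log2 change of *hrg-3* was -1.76 ± 0.15 (SE, adjusted p = 7.07e-12), with -1.74 under the *par-1* label and -1.78 under the *pos-1* label. *hrg-7* encodes a secreted aspartic protease-like protein that signals heme state between the gut and neurons. *hrg-7* ran from 4399 to 6801 normalized counts in the controls (median 5384), from 2134 to 5289 in the *par-1* libraries (median 3471) and from 1430.3 to 3763 in the *pos-1* libraries (median 2671). Its log2 change was -0.84 ± 0.09 (SE, adjusted p = 1.57e-09), -0.67 under the *par-1* label and -1.01 under the *pos-1* label, and the *pos-1* change was the lower (adjusted p of the difference = 0.00867). It was called in 4 strains, but not in EG4348.

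The heme importers had smaller changes. *hrg-4*, of the gut's apical membrane, changed by -0.69 ± 0.13 (SE, adjusted p = 0.000435), and *hrg-1*, of lysosome-related vesicles, by -0.55 ± 0.09 (SE, adjusted p = 5.43e-05). The heme-trafficking gene *hrg-9* changed by -0.47 ± 0.15 (SE, adjusted p = 0.0356) at a mean of 12.9 normalized counts, and lost its call without N2 or without CB4856. The remaining *hrg-5*, *hrg-6* and *hrg-10* had log2 changes of -0.40, -0.02 and 0.11 and were not called. *mrp-5*, the intestinal heme exporter, is outside the *hrg* family and was added after its value was seen. It changed by -0.41 ± 0.06 (SE, adjusted p = 2.2e-06), with -0.25 under the *par-1* label and -0.57 under the *pos-1* label (adjusted p of the difference = 0.000287).

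*gsto-1* (chromosome III, 7945542 to 7947018, minus strand) encodes an omega-class glutathione transferase of the gut. Values in N2 were 329, 449.6 and 416 normalized counts of *gsto-1* in the controls, 156, 147 and 86.3 in the *par-1* libraries and 129.7, 148 and 126 in the *pos-1* libraries. In JU1088, the controls held 492, 524 and 444, the *par-1* libraries 176, 273 and 237, and the *pos-1* libraries 183, 153 and 58.8. The EG4348 controls had 473, 496 and 438, against 277, 277 and 336 in the *par-1* libraries and 217, 234.8 and 269.5 in the *pos-1* libraries. In all 3 strains the treated libraries lay below the controls. Values in CB4856 were 461, 344 and 479 in the controls, 184, 135 and 188 in the *par-1* libraries and 125, 97.7 and 131 in the *pos-1* libraries. In QX1211, the controls held 255, 209 and 265, the *par-1* libraries 127, 128 and 112, and the *pos-1* libraries 111, 87.8 and 76.9. The same separation held in both strains. *gsto-1* changed on the log2 scale by -1.34 ± 0.10 (SE, adjusted p = 1.03e-13), with -1.14 under the *par-1* label and -1.53 under the *pos-1* label (adjusted p of the difference = 0.0124). The glutathione transferase family as a whole did not move one way, since 5 rose and 5 fell of 49 tested (median log2 change 0.03). Each was 10.2% of the family, beside 8.96% and 6.01% of all genes tested. *gst-20* rose by 0.99 ± 0.17 (SE, adjusted p = 8.02e-05) with a range of 33.3 to 233 in the controls, 42.2 to 429 under the *par-1* label and 67.0 to 805 under the *pos-1* label. Its highest value, 805, was 1 of the 2 JU1088 *pos-1* libraries that stood apart. *gst-17* and *gst-18*, at means of 2.58 and 2.49 normalized counts, had log2 changes of -1.40 and -1.43, and both calls were lost with DESeq2.

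F36A2.3 and the pseudogene Y39B6A.21 were among the 12 largest falls of members with a mean of at least 50 normalized counts. F36A2.3 ran from 431 to 777 normalized counts in the controls (median 612), from 227 to 421 in the *par-1* libraries (median 319) and from 135 to 394 in the *pos-1* libraries (median 288). Its treated libraries lay below the controls in all 5 strains, with a log2 change of -1.03 ± 0.08 (SE, adjusted p = 1.2e-12). Y39B6A.21 ran from 19.5 to 3699.9 normalized counts in the controls (median 2425), from 23.7 to 972 in the *par-1* libraries (median 624) and from 30.4 to 2383 in the *pos-1* libraries (median 1120.1). Y39B6A.21 changed on the log2 scale by -1.39 ± 0.11 (SE, adjusted p = 1.31e-12), and it was larger under the *par-1* label, at -2.03, than under the *pos-1* label, at -0.76 (adjusted p of the difference = 1.74e-09).

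Of the protease genes, the *nep*, *cpr* and *ctsa* families were picked after their values were seen. The neprilysin-like metallopeptidase *nep-8* (chromosome II, 3403835 to 3406851, plus strand) had the largest fall of any member. The N2 controls had 64.3, 38.6 and 26.1 normalized counts of *nep-8*, against 1.51, 1.37 and 5.35 in the *par-1* libraries and 1.04, 0 and 0 in the *pos-1* libraries. Values in JU1088 were 137, 111 and 115 in the controls, 13.7, 33.9 and 21.2 in the *par-1* libraries and 3.91, 2.33 and 3.83 in the *pos-1* libraries. In EG4348, the controls held 3.44, 2.33 and 6.12, the *par-1* libraries 0.934, 0.821 and 0, and the *pos-1* libraries 0, 0 and 0. Every treated library lay below every control of its strain, and levels were lowest in EG4348. The CB4856 controls had 12.9, 17.4 and 18.9, against 4.46, 4.78 and 6.16 in the *par-1* libraries and 2.35, 5.11 and 0.822 in the *pos-1* libraries. Values in QX1211 were 34.4, 30.5 and 20.4 in the controls, 5.29, 3.66 and 1.83 in the *par-1* libraries and 3.21, 0 and 2.63 in the *pos-1* libraries. The fitted log2 change of *nep-8* was -3.51 ± 0.23 (SE, adjusted p = 6.25e-15). In N2, EG4348 and QX1211 some or all *pos-1* libraries held 0, as did a *par-1* library of EG4348. No bound can be read from the fitted values of *nep-8* there. Its neighbours on chromosome II moved with it. *nep-10*, at a mean of 6.38 normalized counts, changed by -1.73 ± 0.29 (SE, adjusted p = 6.93e-05), and *nep-9*, at 1.73, by -1.31 ± 0.36 (SE, adjusted p = 0.0147), a call lost with DESeq2 and with 1 mean per strain and treatment. The adjacent pseudogene F18A12.3, at a mean of 3.61, changed by -2.72 ± 0.29 (SE, adjusted p = 6.73e-09), a call also lost with 1 mean per strain and treatment. The more abundant *nep-17*, also on chromosome II, changed by -0.52 ± 0.07 (SE, adjusted p = 1.1e-06). Of 23 *nep* genes tested, 7 fell and 1 rose (median log2 change -0.03), where 6.01% of all genes tested fell and 8.96% rose. The gene that rose was *nep-16*, at 1.45 ± 0.41 (SE, adjusted p = 0.0169).

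Cathepsin-like proteases split by gene. Of 8 cathepsin B-like *cpr* genes, *cpr-4*, *cpr-5* and *cpr-8* fell and *cpr-3* and *cpr-6* rose (median log2 change 0.11). Of all genes tested, 6.01% fell and 8.96% rose. *cpr-8* ran from 168 to 310.5 normalized counts in the controls (median 241), from 113 to 195 in the *par-1* libraries (median 159) and from 112 to 196 in the *pos-1* libraries (median 142). Its log2 change was -0.66 ± 0.06 (SE, adjusted p = 1.54e-11), with -0.63 under the *par-1* label and -0.69 under the *pos-1* label. *cpr-5* changed by -0.60 ± 0.07 (SE, adjusted p = 1.51e-07) and *cpr-4* by -0.71 ± 0.11 (SE, adjusted p = 1.9e-05), and *cpr-4* fell more under the *par-1* label, at -1.08, than under the *pos-1* label, at -0.34 (adjusted p of the difference = 3.16e-05). *cpr-3* went the other way, from 31.2 to 81.9 normalized counts in the controls to 76.3 to 254 under the *par-1* label, with a log2 change of 0.91 ± 0.12 (SE, adjusted p = 8.6e-07). Of 7 cathepsin A-like *ctsa* genes, 3 fell and 0 rose (median log2 change -0.19), where 6.01% of all genes tested fell and 8.96% rose. *ctsa-4.1* changed by -0.73 ± 0.07 (SE, adjusted p = 3.33e-10), *ctsa-4.2* by -0.73 ± 0.10 (SE, adjusted p = 7.91e-07) and *ctsa-3.1* by -0.58 ± 0.09 (SE, adjusted p = 8.05e-06). For *ctsa-4.1* both labels gave values that did not differ by the test, -0.77 and -0.70 (adjusted p = 0.562).

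Of 66 UDP-glycosyltransferases, which attach sugars to small molecules, 16 fell (24.2%, beside 6.01% of all genes tested) and 7 rose (10.6%, beside 8.96%), with a median log2 change of -0.11, and all 16 that fell were members. *ugt-21* changed by -0.75 ± 0.07 (SE, adjusted p = 5.72e-10), -0.76 under the *par-1* label and -0.75 under the *pos-1* label. *ugt-21* ran from 68.4 to 228 normalized counts in the controls (median 90.3), from 26.7 to 132 in the *par-1* libraries (median 54.8) and from 39.7 to 127 in the *pos-1* libraries (median 53.1), and it was called in 4 strains. *ugt-13*, *ugt-12*, *ugt-53* and *ugt-63* had log2 changes of -0.78, -0.50, -0.92 and -0.91. The largest rise was that of *ugt-43*, at 1.84 ± 0.23 (SE, adjusted p = 4.11e-07) and a mean of 13.4 normalized counts. Of 8 *haf* genes, which encode ABC transporters, 2 fell and 0 rose. One of these, *haf-7*, changed by -0.78 ± 0.08 (SE, adjusted p = 5.85e-10), -0.76 under the *par-1* label and -0.79 under the *pos-1* label. The gut peptide transporter *pept-1* changed by -0.38 ± 0.08 (SE, adjusted p = 0.00272), and the ammonium transporter *amt-1*, added after its value was seen, by -1.05 ± 0.17 (SE, adjusted p = 4.47e-05). Cytochrome P450 genes, which oxidize small molecules, had 15 of 73 that rose (20.5%) and 7 that fell (9.59%). *cyp-14A5* rose by 0.81 and *cyp-25A1* by 0.53 on the log2 scale.

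Cuticle collagens fell and rose. Of 152 tested, 18 fell, 15 of them members, and 11 rose (median log2 change -0.08). *col-129* ran from 265 to 1626 normalized counts in the controls (median 868), from 221 to 1075 in the *par-1* libraries (median 427) and from 221 to 1017 in the *pos-1* libraries (median 429.6), with a log2 change of -0.78 ± 0.15 (SE, adjusted p = 0.000785). *col-39*, *col-81* and *col-139* changed by -0.93, -0.72 and -0.64. Within a strain, these genes and *col-129* were called in JU1088 only, and their calls over all strains were kept without it. Against these, *sqt-3*, a collagen gene needed for body shape, was among the 12 largest rises, together with the molting genes *noah-1* and *mlt-8* and the gene *dao-2*. In N2, the controls held 451, 142 and 71.9 normalized counts of *sqt-3*, the *par-1* libraries 76.4, 105 and 146, and the *pos-1* libraries 609.7, 79.5 and 43.6. The QX1211 controls had 186, 130.4 and 229, against 1512, 1246 and 1566 in the *par-1* libraries and 172, 388 and 120.5 in the *pos-1* libraries. The spread between replicates was wide in N2, where the groups overlapped. The log2 change of *sqt-3* was 1.39 ± 0.36 (SE, adjusted p = 0.0105), and those of *noah-1*, *mlt-8* and *dao-2* were 1.17, 1.19 and 1.39. Over N2, JU1088 and EG4348 alone the calls of *sqt-3*, *noah-1* and *dao-2* were lost.

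**Figure D2:**
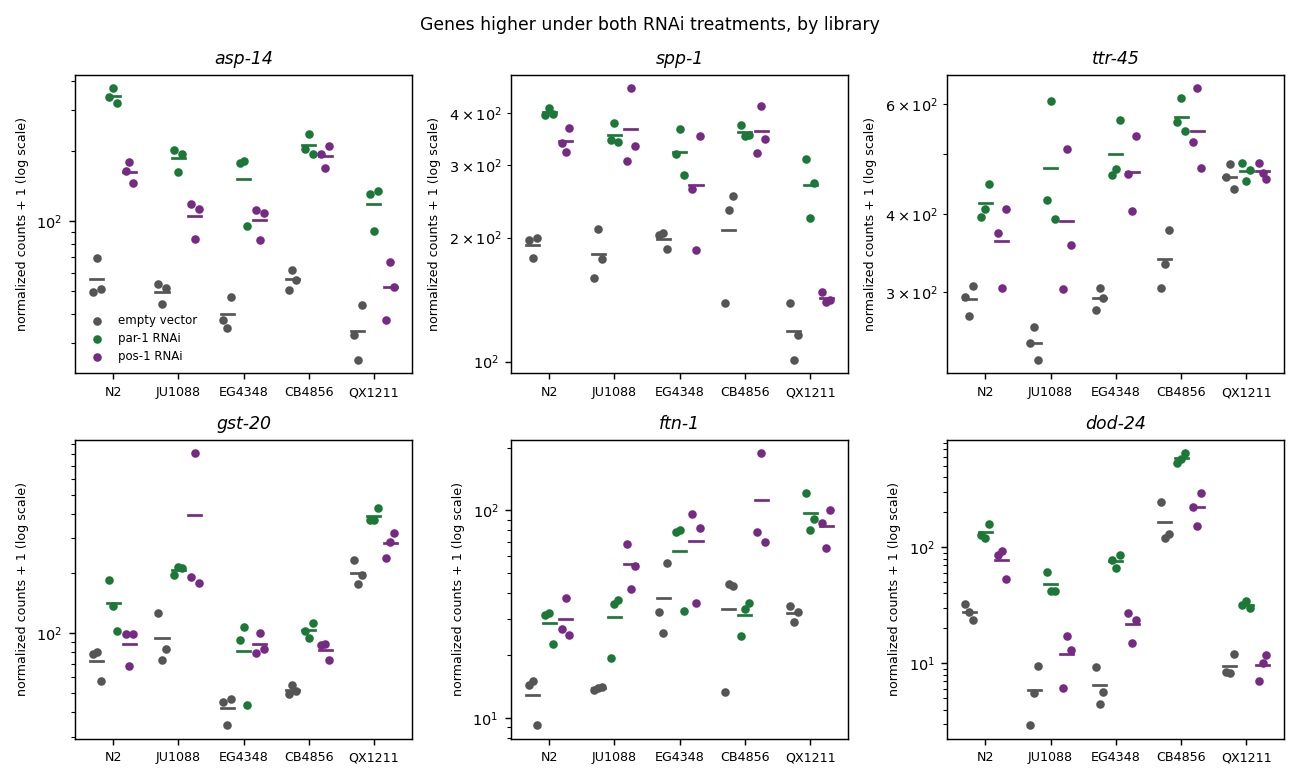
Normalized counts plus 1 (y axis, log scale) of 6 members that rose, by strain (x axis), with points, bars and colours for libraries, means of 3 replicates and treatments as in the plot of members that fell. The *asp-14* points separate from the controls in every strain but QX1211, and the replicates of *gst-20* and *ftn-1* spread more widely.

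The aspartyl protease gene *asp-14* (chromosome X, 6444185 to 6446664, minus strand) rose in every strain. The study had singled it out on these samples, so its direction is not independent evidence. Values in N2 were 48.6, 68.1 and 50.2 normalized counts of *asp-14* in the controls, 341, 371 and 321 in the *par-1* libraries and 163, 178 and 144 in the *pos-1* libraries. In JU1088, the controls held 52.6, 42.9 and 50.4, the *par-1* libraries 202, 161 and 193, and the *pos-1* libraries 118, 82.9 and 111. The EG4348 controls had 36.7, 33.8 and 46.3, against 176, 181 and 94.4 in the *par-1* libraries and 111, 81.7 and 107 in the *pos-1* libraries. All treated libraries of these 3 strains lay above their controls. Values in CB4856 were 49.7, 60.8 and 54.9 in the controls, 203, 235.3 and 194 in the *par-1* libraries and 193, 168 and 208 in the *pos-1* libraries. In QX1211, the controls held 31.4, 24.3 and 42.8, the *par-1* libraries 130, 89.4 and 133, and the *pos-1* libraries 36.6, 65.4 and 51.3. The groups did not overlap in CB4856, and in QX1211 a single *pos-1* library, replicate 1, lay within the range of the controls. The log2 change of *asp-14* was 1.71 ± 0.11 (SE, adjusted p = 4.1e-15). It was larger under the *par-1* label, at 2.09, than under the *pos-1* label, at 1.34 (adjusted p of the difference = 1.48e-06). By strain the mean of both labels was 2.08 (N2), 1.52 (JU1088), 1.68 (EG4348), 1.85 (CB4856) and 1.22 (QX1211), and the difference between strains did not pass the test (adjusted p = 0.702). Of 15 aspartyl protease genes, 7 rose (46.7%, beside 8.96% of all genes tested) and 1 fell (6.67%, beside 6.01%). Their median log2 change was 0.42 under the *par-1* label and -0.08 under the *pos-1* label. *asp-14* and *hrg-7*, which moved in opposite directions, were the members among them.

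W06G6.11, which the study also names, was not a member. It was listed at 0 in all 9 N2 libraries. In JU1088 the controls held 3.6, 5.59 and 3.3 normalized counts, the *par-1* libraries 16.7, 32.1 and 18.7, and the *pos-1* libraries 12.2, 60.7 and 39.9. Its log2 change over all strains was 1.00 ± 0.36 (SE, adjusted p = 0.074), with 2.82 (JU1088), 1.27 (EG4348), 0.28 (CB4856) and -0.55 (QX1211). It passed the threshold but not the sign rule, and the call was kept in 36 of 45 fits with 1 library left out.

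Of 24 saposin-like *spp* genes, whose products can permeabilize bacterial membranes, 9 rose (37.5%, beside 8.96% of all genes tested) and 0 fell (median log2 change 0.33). *spp-1* ran from 99.9 to 252 normalized counts in the controls (median 187), from 222 to 412 in the *par-1* libraries (median 351) and from 138 to 459.9 in the *pos-1* libraries (median 322). Its log2 change was 0.81 ± 0.09 (SE, adjusted p = 2.51e-09), with 0.93 under the *par-1* label and 0.69 under the *pos-1* label. *spp-5* changed by 0.47 ± 0.05 (SE, adjusted p = 4.32e-10), at 0.67 under the *par-1* label and 0.26 under the *pos-1* label (adjusted p of the difference = 3.44e-08). *spp-17* and *spp-3* changed by 0.34 and 0.31. Of 13 lysozyme genes, 7 rose (53.8%) and 0 fell (median 0.27), and 3 were members. *ilys-5* ran from 1701 to 3266 normalized counts in the controls (median 2359.5), from 2510.5 to 4949 in the *par-1* libraries (median 4029) and from 2159 to 3539 in the *pos-1* libraries (median 2734), with a log2 change of 0.45 ± 0.07 (SE, adjusted p = 4.02e-05). *lys-7* changed by 0.80 ± 0.11 (SE, adjusted p = 1.63e-06) and *lys-6* by 1.00 ± 0.25 (SE, adjusted p = 0.00706). *lys-7* was at or near 0 in QX1211, and its call was lost with 1 mean per strain and treatment. The summed level of the lysozymes was 706 to 1189.9 CPM in the controls, 1137 to 1946 in the *par-1* libraries and 639.7 to 1264 in the *pos-1* libraries. Of 27 pathogen response genes 7 rose (25.9%) and 0 fell, but their median was 0.81 under the *par-1* label and -0.03 under the *pos-1* label. *dod-24*, a gene of the innate immune and insulin pathways, had the largest rise among these. The N2 controls had 31.7, 26.6 and 22.4 normalized counts of *dod-24*, against 127, 119 and 156 in the *par-1* libraries and 85.0, 92.7 and 52.2 in the *pos-1* libraries. Values in QX1211 were 7.47, 7.18 and 11.0 in the controls, 30.7, 33.7 and 28.8 in the *par-1* libraries and 6.01, 9.15 and 10.8 in the *pos-1* libraries. In QX1211 the *pos-1* libraries overlapped the controls. Its log2 change was 1.65 ± 0.17 (SE, adjusted p = 1.69e-09), at 2.39 under the *par-1* label and 0.91 under the *pos-1* label (adjusted p of the difference = 6.08e-09).

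Of 176 C-type lectins 25 rose (14.2%) and 8 fell (4.55%). The median log2 change was 0.12, with 0.29 under the *par-1* label and -0.02 under the *pos-1* label. The lectin counts hold *clec-209* under both of its gene identifiers, which carried the same values, with a log2 change of 0.54. Of 41 antimicrobial peptides 3 rose (7.32%) and 2 fell (4.88%), near the shares of all genes tested, 8.96% and 6.01%. Of the lectins, *clec-50* rose by 0.27 on the log2 scale and *clec-86* changed by -0.62. The intracellular pathogen response, a set of *pals* and ubiquitin ligase genes induced by viruses and microsporidia, had 16 genes that rose (37.2%) and 0 that fell of 43 (median 0.35). Most were scarce, with a median of 5.17 normalized counts over the list. *pals-39* and *pals-33* had log2 changes of 1.79 and 1.59 at means of 3.75 and 4.94 normalized counts. The better-expressed *skr-4*, a SKP1-like ligase subunit, changed by 0.45 ± 0.09 (SE, adjusted p = 0.0014). The calls of all 3 genes were lost over CB4856 and QX1211 alone.

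Of 54 transthyretin-related genes, a nematode family of secreted proteins, 21 rose (38.9%, beside 8.96% of all genes tested), 0 fell and 13 were members (median log2 change 0.20). *ttr-51* ran from 573 to 1119 normalized counts in the controls (median 791), from 1124 to 2058 in the *par-1* libraries (median 1267) and from 749.6 to 1307 in the *pos-1* libraries (median 1011), with a log2 change of 0.54 ± 0.08 (SE, adjusted p = 2.46e-06). *ttr-6*, *ttr-45* and *ttr-26* changed by 0.39, 0.53 and 0.94. The summed level of the family was 1103 to 1664 CPM in the controls, 1540.0 to 2135 in the *par-1* libraries and 1291 to 1761 in the *pos-1* libraries. *far-6*, a fatty acid and retinol binding protein gene added after its value was seen, changed by 0.62 ± 0.06 (SE, adjusted p = 1.96e-09) and was called in every strain but QX1211.

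Among 77 histone genes 13 rose (16.9%, beside 8.96% of all genes tested) and 1 fell (1.30%, beside 6.01%), with a median of 0.22. Many core histone genes are identical copies whose reads cannot be assigned with certainty. Values are therefore given for the linker histones. *his-24* ran from 48.4 to 1936 normalized counts in the controls (median 321), from 276 to 3135 in the *par-1* libraries (median 1049) and from 87.5 to 1555 in the *pos-1* libraries (median 565). The log2 change of *his-24* was 1.17 ± 0.20 (SE, adjusted p = 0.000104), those of *hil-3* and *hil-2* were 0.91 ± 0.16 (SE, adjusted p = 0.00014) and 0.65 ± 0.11 (SE, adjusted p = 8.64e-05), and 4 of 8 *hil* genes rose. For *his-24* the *par-1* change, 1.699, exceeded the *pos-1* change, 0.64 (adjusted p of the difference = 0.000238).

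Of 57 genes transcribed early in the embryo, 17 rose (29.8%, beside 8.96% of all genes tested) and 0 fell (median log2 change 0.24), and 4 were members. The T-box gene *tbx-38* changed by 1.23 ± 0.21 (SE, adjusted p = 6.87e-05) and *sdz-27* by 0.20 ± 0.04 (SE, adjusted p = 0.000785). Their summed level was 366 to 545 CPM in the controls, 438 to 667 in the *par-1* libraries and 375 to 682 in the *pos-1* libraries, so that the groups overlapped. Of 305 F-box genes 42 rose (13.8%) and 3 fell (0.984%, beside 6.01% of all genes tested). The median change was 0.28, with 0.51 under the *par-1* label and 0.11 under the *pos-1* label. Their median level was 6.26 normalized counts. Among 67 MATH and BATH genes 7 rose (10.4%, near the 8.96% of all genes tested) and 1 fell (median log2 change 0.15). Among neuropeptide and insulin-like genes 9 rose (14.3%) and 0 fell of 63 tested (median log2 change 0.13), with *ins-7* at 1.11 ± 0.19 (SE, adjusted p = 0.000133).

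Metal genes included *ftn-1*, which encodes ferritin, the iron store of the gut. *ftn-1* ran from 8.21 to 54.5 normalized counts in the controls (median 24.5), from 18.4 to 119.7 in the *par-1* libraries (median 34.5) and from 23.9 to 186 in the *pos-1* libraries (median 67.9). Its log2 change was 1.22 ± 0.19 (SE, adjusted p = 2.59e-05), and it was higher under the *pos-1* label, at 1.48, than under the *par-1* label, at 0.95 (adjusted p of the difference = 0.0461). Of the 14 metal genes 5 rose (35.7%, beside 8.96% of all genes tested) and 1 fell (7.14%, beside 6.01%). Their median log2 change was 0.53 under the *par-1* label and 0.02 under the *pos-1* label. The list counts *numr-1* under both of its gene identifiers, which carried the same values, with a log2 change of 0.96. *endu-2*, which encodes a poly-U-specific endoribonuclease, was among the 12 largest rises. *endu-2* ran from 129.8 to 753 normalized counts in the controls (median 222), from 459 to 2409 in the *par-1* libraries (median 830.2) and from 131 to 870.2 in the *pos-1* libraries (median 417). Its log2 change was 1.19 ± 0.15 (SE, adjusted p = 6.12e-07), at 1.75 under the *par-1* label and 0.63 under the *pos-1* label. The others of these 12 not yet named were F13E9.11, ZK6.8, *slc-17.6*, W03F9.4 and *pes-2.1*, with log2 changes of 1.204, 1.27, 1.23, 1.35 and 1.48. W03F9.4 and *pes-2.1* varied widely, with SEs of 0.44 and 0.53. The call of *pes-2.1* was lost with DESeq2, without the 3 libraries of shared fragment length, and without QX1211 control replicate 1 or 2 or CB4856 control replicate 1. Of the 12 largest falls, *nuo-3*, F53F1.4, F18E3.13 and Y54G11A.7 had changes of -1.26, -0.92, -0.84 and -0.78. The call of *nuo-3* was lost without QX1211 control replicate 1 (adjusted p = 0.14) or without EG4348 control replicate 3 (adjusted p = 0.108).

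**Figure D3:**
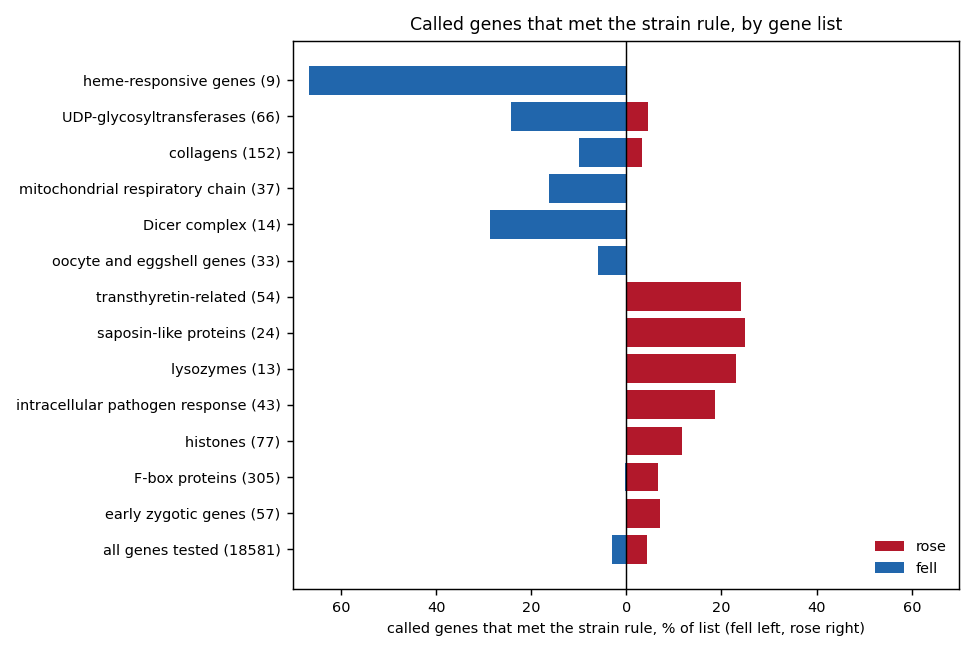
Members as a share of each gene list (x axis, percent of the genes tested; fell to the left in blue, rose to the right in red), with the number tested in brackets beside each list (y axis). Of the heme-responsive genes 66.7% were members that fell, beside 2.99% of all genes, and 4.25% of all genes were members that rose.

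The libraries of the 2 labels share each strain's controls, so their changes against them are not independent. They differed in size. Against the controls, 6156 genes were called under the *par-1* label (33.1%), with 3520 that rose and 2636 that fell. Under the *pos-1* label 379 were called (2.04%), with 161 that rose and 218 that fell, and 747 were called without N2 control replicate 1. Set against each other directly, the *par-1* and *pos-1* libraries differed at 6508 genes (35.0%). Most members were called under the *par-1* label. Of the 1344, 1248 were called in the comparison of the *par-1* label with the controls, 190 in that of the *pos-1* label and 59 in neither. Under both labels 153 members were called, of which 81 rose and 72 fell. The change was larger under the *par-1* label in 1127 members. The difference between labels passed the test in 726 members, in 689 of which the *par-1* change was the larger. For the members that rose, the median log2 change was 0.63 under the *par-1* label and 0.28 under the *pos-1* label. For those that fell, it was -0.23 and -0.09.

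The 3 members with the smallest p for the difference between labels show how the mean can rest on 1 label. T19D12.4 had log2 changes of 1.57 under the *par-1* label and 0.02 under the *pos-1* label (adjusted p of the difference = 1.05e-11). T19D12.4 ran from 154 to 384 normalized counts in the controls (median 263), from 363 to 1270.5 in the *par-1* libraries (median 868) and from 95.7 to 389.9 in the *pos-1* libraries (median 295). ZK105.1 had 0.97 and 0.07, and F22H10.3 0.74 and 0.09. All 3 met the sign rule, since a small positive change is enough for it. In contrast, *hrg-2*, *hrg-3*, *haf-7*, *ugt-21*, *ugt-13*, *cpr-8*, *ctsa-3.1* and *gst-20* had changes that did not differ between the labels by the test, with adjusted p from 0.301 to 0.938. The difference, *par-1* minus *pos-1*, was 0.27 ± 0.19 (SE) for *hrg-2* and 0.04 ± 0.19 for *hrg-3*.

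Most changes were small. The median log2 change was 0.47 for the members that rose and -0.16 for those that fell. A change of at least 1.5-fold was reached by 401 members (2.16% of the genes tested), of which 304 rose and 97 fell. A mean of at least 50 normalized counts was reached by 893 members. Protein-coding genes made up 96.3% of members and 92.5% of the genes tested. By chromosome, members were between 6.63% of the genes tested, on V, and 8.52%, on X.

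The size of the change varied by strain. For members that rose the median log2 change was 0.24 (N2), 0.77 (JU1088), 0.41 (EG4348), 0.41 (CB4856) and 0.29 (QX1211). For members that fell it was -0.15, -0.23, -0.13, -0.15 and -0.17 in the same order. These medians carry no test, since the members' signs were chosen on the same values. Members called within a strain in their own direction numbered 45 (N2), 663 (JU1088), 62 (EG4348), 59 (CB4856) and 26 (QX1211). Of the members that had the sign in 4 strains, the missing strain was QX1211 for 285, EG4348 for 246, N2 for 228, CB4856 for 151 and JU1088 for 113. The rule reads signs only: 8 of the 2377 genes, 1 of them a member (*hpx-2*, at a mean of 0.241 normalized counts), met it only through a change that was 0 at 4 decimals. Few differences between strains passed their own test. It called 23 genes (0.124% of those tested, and 1317 at an unadjusted p under 0.05, with 7 called without the 3 libraries of shared fragment length and 54 without the 3 least like their group), of which 4 were members: *pos-1*, Y39G10AL.1, *cht-1* and *tbb-6*. For *cht-1*, a chitinase gene, the mean of both labels was 0.24 (N2), 2.27 (JU1088), 1.54 (EG4348), 0.92 (CB4856) and 0.36 (QX1211) (adjusted p = 0.0524). For *tbb-6*, a beta-tubulin gene, it was 0.73 (N2), 1.00 (JU1088), 1.501 (EG4348), 0.92 (CB4856) and -0.38 (QX1211) (adjusted p = 0.0524). For *hrg-2* and *gsto-1* the test of a strain difference gave an adjusted p of 0.939 and 0.679.

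How far the members rest on single strains was read from fits without them. JU1088 counted most: without it 1150 genes were called and 655 members kept their call and direction, against 1129 without N2, 985 without EG4348, 963 without CB4856 and 979 without QX1211. In N2, JU1088 and EG4348 alone 626 members kept their call. In CB4856 and QX1211 alone, the strains described as largely incompetent, 603 genes were called and 280 members kept it.

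**Figure D4:**
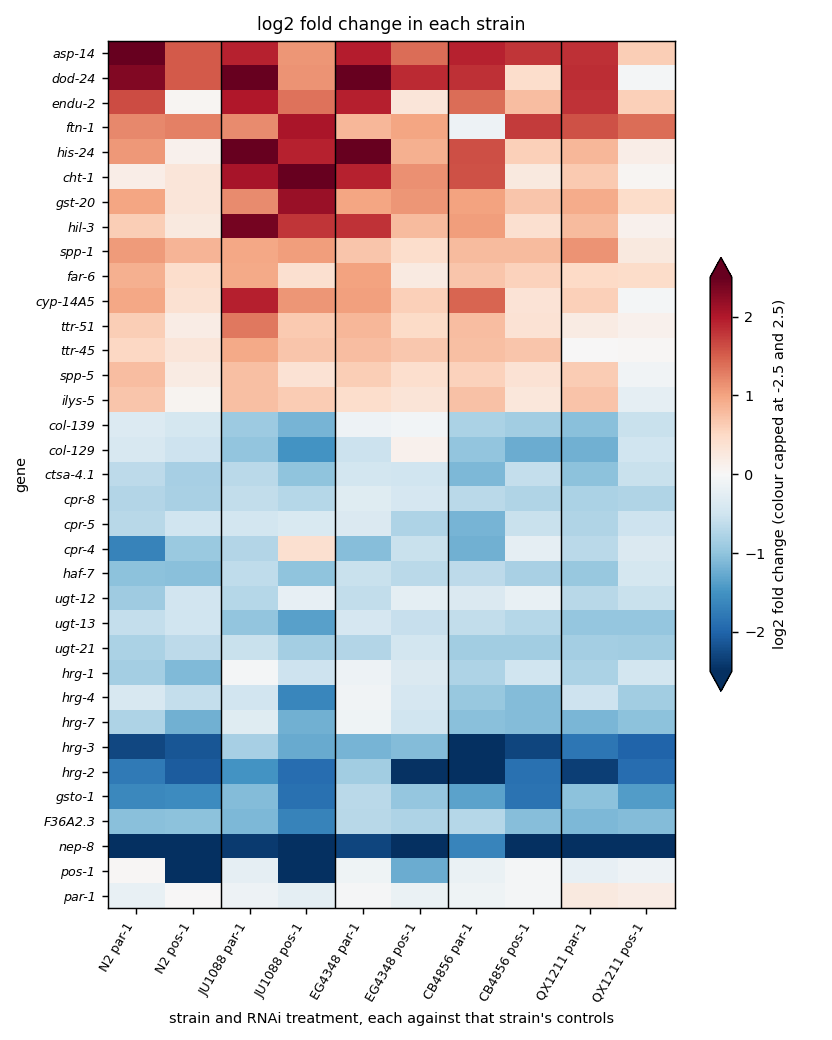
Log2 fold change (colour, red higher and blue lower, capped at the ends of the scale) of named genes (y axis) under each label in each strain (x axis, each against that strain's 3 controls). The rows of *hrg-2*, *hrg-3*, *gsto-1* and *nep-8* are blue in every column and that of *asp-14* red in every column, while *pos-1* is blue mainly in the *pos-1* columns of N2, JU1088 and EG4348.

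Genes of the RNAi machinery moved little. Over all genes tested, 8.96% rose and 6.01% fell. For dsRNA uptake and transport 2 rose (28.6%) and 1 fell (14.3%) of 7 tested (median log2 change 0.10). The gene that fell, *rsd-2*, was at -0.07, and its call was kept in 19 of 45 fits with 1 library left out. *sid-2* was at 0.27, *sid-3*, a kinase gene needed for dsRNA import, at 0.20 ± 0.06 (SE, adjusted p = 0.0273) and *sid-1* at -0.02, which was not called. For the Dicer complex and its partners 0 rose and 5 fell (35.7%) of 14 tested (median log2 change -0.06). The members among them, *rde-1*, *drh-1*, *drh-3* and *rde-12*, had log2 changes from -0.09 to -0.08, and *dcr-1* was not called at -0.05. The calls of *rde-1*, *drh-1* and *drh-3* were lost without transcript length offsets, and that of *rde-1* was kept in 34 of 45 fits with 1 library left out. For the Argonautes 3 rose (17.6%) and 4 fell (23.5%) of 17 tested (median log2 change -0.04). Of these, *hrde-1*, the nuclear germline Argonaute, was at -0.21 ± 0.05 (SE, adjusted p = 0.00343) and the microRNA Argonaute *alg-2* at 0.18 ± 0.04 (SE, adjusted p = 0.00774). For siRNA amplification 1 rose (6.67%) and 3 fell (20.0%) of 15 tested (median log2 change -0.06), where *rrf-3* changed by -0.11 and *rrf-2* by 0.23. No member of these lists reached a 1.5-fold change.

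Marker lists of tissues were read beside these genes. Over all genes tested, 8.96% rose and 6.01% fell. Of 12 germline markers 7 fell (58.3%), 2 of them members, and 0 rose (median -0.09). The median was -0.17 under the *par-1* label and -0.01 under the *pos-1* label. *glh-1*, a P granule helicase gene, was at -0.25 ± 0.06 (SE, adjusted p = 0.00873). The summed level of the germline markers was 2099 to 2298 CPM in the controls, 1570.1 to 2093 in the *par-1* libraries and 1836 to 2269.9 in the *pos-1* libraries, so that all *par-1* libraries lay below all controls. For oocyte and eggshell genes, *pos-1* among them, 0 rose and 9 fell (27.3%), 2 of them members, of 33 tested. Their median log2 change was -0.07, with -0.14 under the *par-1* label and 0.02 under the *pos-1* label. For sperm genes 0 rose and 1 fell (1.89%) of 53 tested (median log2 change -0.13). For vitellogenins, the yolk proteins, 2 rose (33.3%) and 0 fell of 6 tested (median log2 change 0.14). For intestine markers 2 rose and 1 fell of 10 tested (median log2 change -0.02), for body muscle 1 rose and 0 fell of 9 tested (median log2 change -0.02), and for pharynx 0 rose and 1 fell of 8 tested (median log2 change 0.03). All 6 male markers were uncalled, and summed to 0.489 to 3.02 CPM, near 0, over all libraries. For the mitochondrial respiratory chain 0 rose and 7 fell (18.9%) of 37 tested (median log2 change -0.05). For ribosomal proteins 0 rose and 7 fell (8.75%), 1 of them a member, of 80 tested (median log2 change -0.05). For heat shock and unfolded protein response genes 3 rose (14.3%) and 2 fell (9.52%) of 21 tested (median log2 change 0.13). The part of tissue composition in the results above was not tested.

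The *pud* genes show what the sign rule leaves out. All 6 rose, *pud-4* by 2.81 ± 0.31 (SE, adjusted p = 5.47e-06) and *pud-3* by 2.59 ± 0.16 (SE, adjusted p = 8.3e-10), but none met the rule. *pud-3* and *pud-4* were listed at 0 in every library of EG4348, CB4856 and QX1211, and both calls were lost with 1 mean per strain and treatment.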

How the data were processed

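RNA from whole hermaphrodites was sequenced in 45 libraries (5 strains, 3 treatments, 3 replicates). From the study's methods, stranded single-end reads were trimmed with Trimmomatic 0.3.9 and quantified with Salmon 1.4.0 against a transcriptome built for each strain. The authors deposited Salmon estimated counts, TPM and effective lengths per transcript. They also deposited a table of gene counts normalized with DESeq2 1.32.0, a signal called normalized counts here. By the study's methods this normalization took in library size and transcript length. The estimated counts assign reads shared by similar transcripts by model, which bears on gene families.

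The deposited estimated counts were summed per gene (WBcel235, Ensembl annotation; 21 transcript names were unmatched), rounded, and kept where at least 10 reads were found over all libraries, with transcript lengths weighted by the deposited TPM as offsets. edgeR 4.0.16 in R 4.3.3 was fitted with TMM factors and the quasi-likelihood test, with strain and treatment as terms, and the contrast was the mean of PAR1 and POS1 minus CTR. Changes per strain came from a fit with 1 mean per strain and treatment. P-values were adjusted by Benjamini-Hochberg over all genes, and a call needed an adjusted p under 0.1. The deposited normalized counts gave the values per library. Single-library leave-outs were run for the fit over all strains, not for the tests within or between strains. The test of the mean of both labels against controls was checked on simulated data. There every gene had the same spread between replicates, and only well-expressed genes changed, equally in all strains and under both labels. The check therefore does not cover scarce genes or changes that differ between strains or labels.

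Named were the targets; among members whose mean reached 50 normalized counts, the 12 largest rises, the 12 largest falls and the 5 smallest p; the 3 members with the smallest p for each difference, between strains and between labels; up to 4 members per gene list; and *asp-14* and W06G6.11, which the study names. Genes outside this rule were chosen after their values were seen: the *nep*, *cpr*, *ctsa* and *pud* genes, *hrg-4*, *hrg-9*, *mrp-5*, *haf-7*, *far-6*, *amt-1*, *tbb-6*, *tbh-1*, *anp-1*, F18A12.3, C40H1.7, *tag-10*, E04F6.8 *hpx-2* and the uncalled genes of lists. The members and the gene lists were chosen with earlier results of these data known. Replicates are biological by the study's methods, and each of 45 replicate pairs differed beyond sampling noise (a chi-square per gene of at least 1.65, where noise alone gives about 1 per degree of freedom). Alternatives were other normalization, filters, models, DESeq2 1.42.0, a replicate block, and fits without libraries or strains.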

Additional observations from a re-analysis of the deposited data

Results flagged for a closer look

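For 4 members the mean change of both labels differed between strains by the test with 4 strain differences at once. *pos-1* had an adjusted p of 1.1e-12, with log2 changes of -1.27 (N2), -1.91 (JU1088), -0.67 (EG4348), -0.10 (CB4856) and -0.16 (QX1211). It is the target of 1 of the dsRNAs, and its change under the *par-1* label was -0.12.

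Y39G10AL.1 had an adjusted p of 0.0231, with 0.41 (N2), 2.29 (JU1088), 0.50 (EG4348), 0.57 (CB4856) and 0.22 (QX1211). In JU1088 the controls held 23.1, 28.7 and 29.2 normalized counts, the *par-1* libraries 115, 162 and 121 and the *pos-1* libraries 109.7, 145 and 138.5.

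*cht-1* had an adjusted p of 0.0524. Its N2 controls held 390.2, 246 and 319 normalized counts against 400.2, 412 and 255 in the *par-1* libraries, and its JU1088 controls 176, 303 and 259 against 798, 1426 and 844. *tbb-6*, with an adjusted p of 0.0524, had JU1088 controls at 33.0, 25.2 and 31.7, *par-1* libraries at 81.0, 79.4 and 103 and *pos-1* libraries at 47.0, 50.0 and 27.1.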

How the results depend on the processing

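Under the alternatives run, no named member changed direction. Of 146 named members, 127 kept their call under each processing setting that gave them a value. The call was kept by 130 with each of 45 libraries left out and by 62 under each of 7 sets of strains. There were 9 processing settings, but some scarce genes, such as *daf-10* and *his-6*, had a value in only 8. Without JU1088, 1150 genes were called (623 rose, 527 fell), and 176 under the *pos-1* label. Without CB4856, 1074 rose and 214 were called under the *pos-1* label. N2, JU1088 and EG4348 alone gave 1150 calls (714 rose, 436 fell), 3638 under the *par-1* label, 188 under the *pos-1* label and 3799 between labels. CB4856 and QX1211 alone gave 603 (454 rose, 149 fell), 3597 under the *par-1* label and 54 under the *pos-1* label, and here the *par-1* gene, which was not called, turned to 0.0651 and W06G6.11, called but no member, to -0.0693. The cause was not tested beyond fewer samples. Asking for the sign in 5 strains left 376 genes and 321 members, and in 3 strains gave 7465 and 2243. A 1.5-fold minimum left 834 calls (691 rose, 143 fell) and 401 members (304 rose, 97 fell). Without the 3 libraries of shared fragment length the strain difference had 7 calls, JU1088 alone 1480 and QX1211 alone 27. Without the 3 least like their group it had 54, with 152 in EG4348 and 87 in QX1211. With 1 library left out, calls ran from 2205 to 3458 (1301 to 2086 that rose and 904 to 1372 that fell) and members from 1102 to 1717 (618 to 1038 and 447 to 679), the highest without N2 control replicate 1. Genes that met the sign rule ran from 2203 to 2718. Calls ran from 5556 to 6494 under the *par-1* label, from 275 to 747 under the *pos-1* label and from 5953 to 6646 between labels. Such fits were not run for the tests within or between strains. With a replicate block, 2630 genes were called, 1294 were members and the strain difference had 80 calls. Same-numbered libraries deviated together (r over 0.1) in 21 of 45 pairs. Their median r was 0.08, beside -0.02 for pairs with different numbers, and 22 of 45 libraries correlated best with their own number. Whether same-numbered libraries had more than a number in common was not tested. DESeq2 gave 2967 calls and 1363 members.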
